A study of Mus with 2 samples.

Results

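The CaM kinase kinases and the kinases they act on were examined in BMDMs, macrophages grown from mouse bone marrow, after treatment with the FXR agonist GW4064. The 10 genes were chosen by name as the CaM kinase kinases Camkk1 and Camkk2, the CaM kinases Camk1, Camk1d and Camk4, the LKB1 gene Stk11, and the AMPK subunit genes Prkaa1, Prkaa2, Prkab1 and Prkag1. They were chosen with their values known, Camkk1 for its rise on these arrays, so that the values of Camkk1 are a description. Non-control probes were assigned to genes through their transcript accessions, which gave 14 of 39429 probes and 10 of 20144 genes, and 9 of the 10 genes were among the 13532 genes measured. Marrow of male C57BL6/J mice was grown for 7 days with 10 ng/mL of M-CSF, and 10 ng/mL of IL-4 was then given for 24 h to produce M2 macrophages. During these 24 h one culture received 10 µM GW4064 in DMSO and the other received DMSO, and each gave 1 Agilent 1-colour array. The title, source and treatment labels name the arrays in this way, while the free-text description of the GW4064 sample speaks of DMSO, and the groups were taken from the former. Both groups therefore carry M-CSF and IL-4, and the number of animals behind each culture is not given in the sources used here.

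Calcium bound to calmodulin switches on the CaM kinase kinases, which in turn phosphorylate the activation loop of CaM kinases of the CaMKI and CaMKIV types. CaMKK2 also phosphorylates the catalytic alpha subunit of AMPK, a trimer of alpha, beta and gamma subunits that senses a low energy state, and LKB1 does the same independently of calcium. In macrophages AMPK is known for favouring oxidative metabolism and restraining inflammatory gene expression. Binding of calmodulin, nucleotides or partner proteins and phosphorylation control the activity of these kinases, and an array of transcripts does not read them.

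Values are the signal of a spot after background subtraction. The log2 differences are GW4064 minus DMSO, each array having first been scaled to its own 75th percentile, which stood at 1209 with DMSO and 1265 with GW4064. Replicate error cannot be given with a single array of each culture, no test was run, and precision is limited by this number. The spread that can be measured is that between copies of a probe printed 10 times on the same array, where the log2 difference had a median SD of 0.077 over 234 probes well above background at every spot. A probe is called measured when the scanner software marked it well above background on at least 1 array, and 2-fold is used as the threshold of size. Of all 13532 genes measured, 276 were 2-fold or more higher with GW4064 (2.04%) and 367 were 2-fold or more lower (2.71%), 643 or 4.75% in either direction. Centred on the spike-in control RNA the counts were 212 and 518, and after a normexp background correction 72 and 64, so that 42.9% of the changed genes were higher in the main setting, 29.0% with the spike-in RNA and 52.9% with normexp.

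Camkk1, the gene for CaM kinase kinase alpha, was higher with GW4064 by a factor of 11.5. Its single probe, matched to NM_018883 and printed once, had a signal of 43.8 with DMSO and 527 with GW4064. The errors that the software's model gave for these signals were 5.73 and 52.8. The probe was well above background on both arrays. These errors cover the reading of a spot and leave out the spread between cultures. The log2 difference of 3.52, with a model error of 0.24, was the 4th largest rise among the 21707 probes measured on both arrays. Probes printed 10 times with a DMSO signal between 0.5 and 2 times that of Camkk1 had a median SD of 0.23 over their copies (28 probes). The difference stayed between 3.34 and 3.54 in all settings tried except normexp, whose offset draws dim signals together and which gave 2.37.

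**Figure D1:**
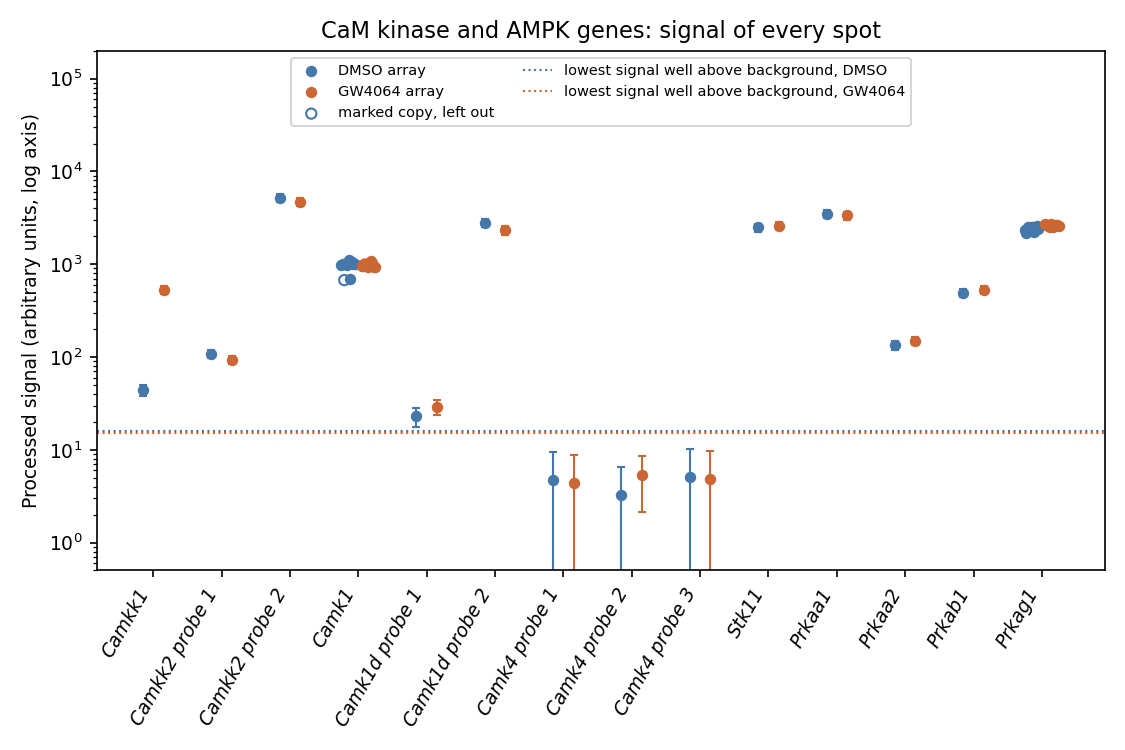
Processed signal of every spot for the 14 probes of the 10 genes, in arbitrary units on a log axis, with the DMSO array in blue and the GW4064 array in orange. Bars are the error of the software's model for probes printed once, open circles are a marked copy that was left out, and dotted lines are the lowest signals well above background, 15.7 and 15.1. Camkk1 stands at 43.8 and 527, and the probes for Camk4 lie under the dotted lines on both arrays.

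The Camkk1 value rests on 1 spot per array, so its surroundings were examined. The spot measured 244 µm across on the DMSO array and 243 µm on the GW4064 array, was marked as neither uneven nor saturated, and its median over pixels was 77 with DMSO and 550 with GW4064 against local backgrounds of 23 and 13. Elsewhere on the slide, 577 spots had a difference of 8-fold or more, and areas with 2 or more other such spots within 300 µm, called clustered areas below, held 16.5% of all spots. Camkk1 lay outside these areas, with 0 such spots within 300 µm and 2 within 1000 µm. The 57 other spots within 300 µm had a median log2 difference of -0.13, and the 35 of them well above background on both arrays had a median of -0.027.

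Of the 6 spots adjacent to Camkk1, at most 75 µm away, 5 differed by between -0.31 and 0.24, and the remaining one was a copy of the probe for Il1b, the interleukin-1 beta gene, with 1.85. The Il1b probe was printed 10 times over the array and had a difference of 1.90 over its copies, so that the copy beside Camkk1 differed little from those elsewhere. Whether the rise of Camkk1 would appear in a second culture was not tested.

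**Figure D2:**
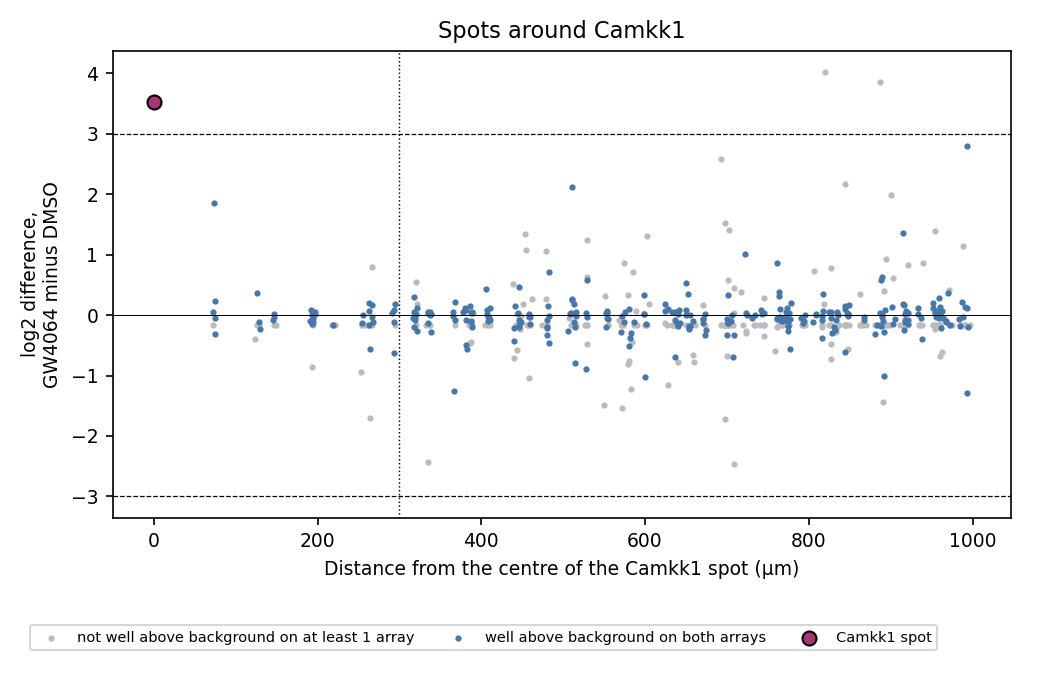
log2 difference (GW4064 minus DMSO) of each spot within 1000 µm of the Camkk1 spot against its distance in µm. Blue spots were well above background on both arrays, grey spots were not, dashed lines mark 8-fold and the dotted line 300 µm. Camkk1 stands at 3.52, no other spot within 300 µm reaches 8-fold, and the 2 that do lie 819 and 887 µm away.

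Camkk2, the gene for CaM kinase kinase beta, a form known to act on AMPK, was lower with GW4064 on both of its probes, below the 2-fold threshold. The probe matched to NM_001199676 had a signal of 5217 with DMSO and 4729 with GW4064, a log2 difference of -0.21. The probe matched to NM_145358 had 109 and 92.8, a difference of -0.29. Both probes therefore pointed the same way, with 1 spot each, outside clustered areas. The local background of the first spot was marked as uneven or as an outlier on at least 1 array. Copies of probes with a like signal had a median SD of 0.073 for the first and 0.14 for the second, while the model error was 0.20 and 0.21. The mean of -0.25 corresponds to a level 15.9% lower with GW4064, and it stayed between -0.44 and -0.20 over 13 alternative settings. The paralogs thus had values on opposite sides of 0, Camkk1 at 3.52 and Camkk2 at -0.25, and no test of their difference can be made with 1 array per condition.

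Camk1 encodes CaM kinase I alpha, and its probe was printed 10 times. One copy, marked as uneven on the DMSO array, was left out of the copy values that follow. The gene value of -0.062 leaves out its DMSO spot alone and keeps its GW4064 spot. Over the 9 copies kept, the signal had a lowest, median and highest value of 696, 1008 and 1109 with DMSO and of 923, 952 and 1076 with GW4064, so that the ranges overlapped. The log2 difference had a mean of -0.064 and an SD of 0.24 over these copies, with 8 copies lower and 1 higher. The higher copy had 696 with DMSO and lay in a clustered area, as did the copy left out, whose DMSO signal was 674. The 7 copies outside clustered areas were all lower, with a mean of -0.14, an SD of 0.050 and a range from -0.22 to -0.075. A further copy in a clustered area, with 983 and 923, had -0.16, within that range. Among the copies kept, the 1 higher copy thus drew the mean of Camk1 towards 0. The small difference stayed negative in each of the 13 settings, and with the clustered areas left out it was -0.14. Why copies in those areas differed was not tested.

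Camk1d, the gene for CaM kinase I delta, had 2 probes matched to NM_177343 that disagreed in sign. The first had signals of 2809 with DMSO and 2320 with GW4064, a log2 difference of -0.34, against a median SD of 0.073 over the copies of 65 probes with a like signal. The second was dim, with 22.9 on the DMSO array, where it was not well above background, and 28.9 on the GW4064 array, a log2 difference of 0.27 after scaling that was smaller than its model error of 0.43. The mean over both was -0.035, while the first probe alone gave -0.34, so that the value of Camk1d depends on the dim probe.

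Camk4 encodes CaM kinase IV, known mainly from T cells, neurons and developing germ cells. Its 3 probes, all matched to NM_009793, were not well above background on either array. Their signals were 4.77, 3.26 and 5.07 with DMSO and 4.39, 5.31 and 4.89 with GW4064, all under the lowest signals counted as well above background, 15.7 and 15.1. No fold is given for Camk4. Of the 10 T cell markers checked on the same arrays, 5 were measured on both arrays, namely Cd3e, Cd4, Cd2, Cd28 and Lck. The brightest of them were Cd4, with 1303 and 1228, and Cd28, with 1249 and 1345. The values for Cd4 and Cd2 rest on a probe printed once. Another probe for Cd4, printed 10 times, had 9.73 and 10.6. Another probe for Cd2, also printed 10 times, had 4.24 and 4.22. These further probes were not well above background on either array. Cd3d, Cd3g, Cd247, Cd8a and Bcl11b were not well above background on either array. The T cell markers were thus divided, and the reason for the low signal of Camk4 was not tested.

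Stk11, the gene for the kinase LKB1, had a signal of 2492 with DMSO and 2576 with GW4064, a log2 difference of -0.018 after scaling. This was below the median SD of 0.072 over the copies of probes with a like signal. The Stk11 spot lay in a clustered area with 10 spots of 8-fold difference within 300 µm, and the part of that area in its value was not tested. Its local background was also marked as uneven or as an outlier.

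The 4 AMPK subunits each lay within 1.2-fold between the arrays. Prkaa1, the catalytic subunit alpha 1, had signals of 3457 with DMSO and 3365 with GW4064, a log2 difference of -0.10 against a median SD of 0.074 over copies at a like signal, and its spot lay in a clustered area with 4 such spots within 300 µm. Prkaa2, the catalytic subunit alpha 2, had 134 with DMSO and 149 with GW4064, a difference of 0.088. Prkab1, the regulatory subunit beta 1, had 490 and 525, a difference of 0.036. These values for Prkaa2 and Prkab1 lay under the median SD of 0.13 and 0.076 at their signals and became negative (-0.099 and -0.15) with centring on the spike-in RNA. That of Prkab1 was also -0.051 after normexp and -0.044 before the evening out of trends.

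Prkag1, the AMP-sensing subunit gamma 1, gave the firmest of these values, as its probe was printed 10 times and all copies were kept. The lowest, median and highest signal was 2184, 2450 and 2583 with DMSO and 2505, 2611 and 2719 with GW4064. After scaling, 6 copies were higher and 4 lower, and the mean log2 difference of 0.045 was below its SD of 0.091. Centred on the spike-in RNA it was -0.14. None of the Prkag1 copies lay in a clustered area.

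**Figure D3:**
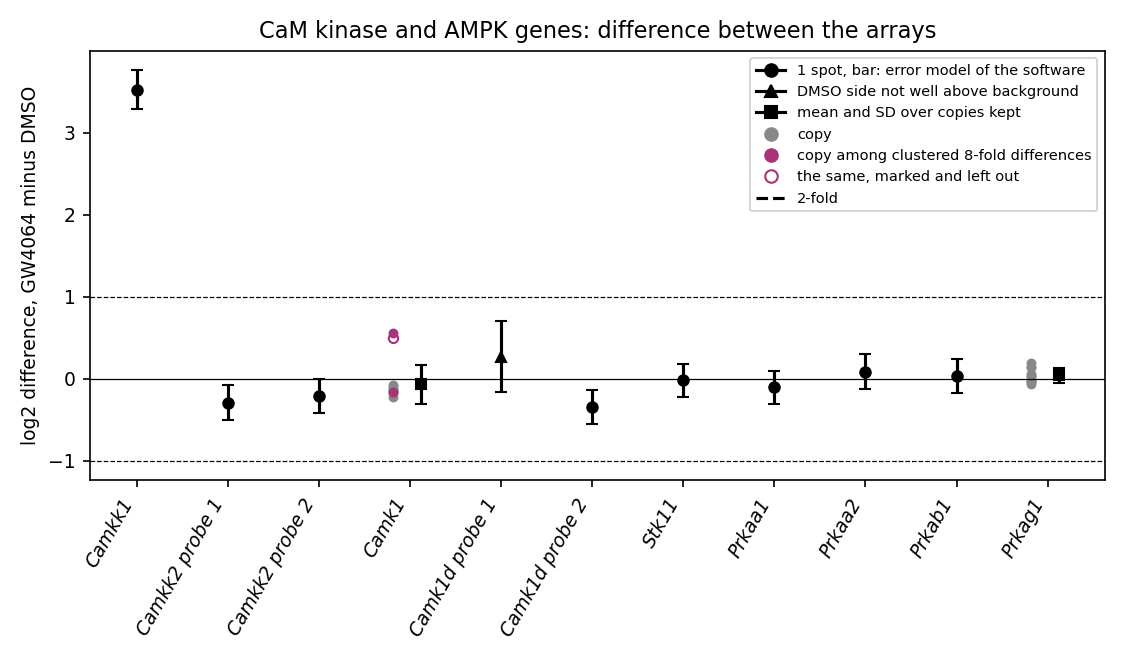
log2 difference (GW4064 minus DMSO) for each of the 11 probes measured. Circles are probes printed once with the error of the software's model, the triangle is a probe measured with GW4064 alone, Camkk2 probe 1 and Camk1d probe 1 are the dimmer of each pair, squares are the mean and SD over the copies kept, small dots are the copies, with those in clustered areas in purple, and dashed lines mark 2-fold. Camkk1 alone lies beyond 2-fold, and 2 copies of Camk1 in clustered areas stand apart from the other 8.

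Of the 9 genes measured, 4 were higher and 5 lower with GW4064. Camkk1 was 2-fold or more higher and 0 genes were 2-fold or more lower, beside 2.04% and 2.71% of all genes. It was also the only one of them that differed 1.5-fold or more, beside 9.95% of all genes. Since Camkk1 was chosen for its rise, this count carries no weight for the group. The other 8 genes lay between -0.25 and 0.088 on the log2 scale, each within 1.2-fold, as did 74.7% of all genes measured. For Camk1d this holds only for the mean with its dim probe, as its brighter probe alone had -0.34. For Camkk2 it holds in the main setting, while its lowest value over the settings was -0.44. The median of the 9 genes was -0.018 and that of the 8 without Camkk1 was -0.026, beside 0.0068 over all genes. With the spike-in RNA the median of the 9 genes was -0.21 and that of all genes -0.18.

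**Figure D4:**
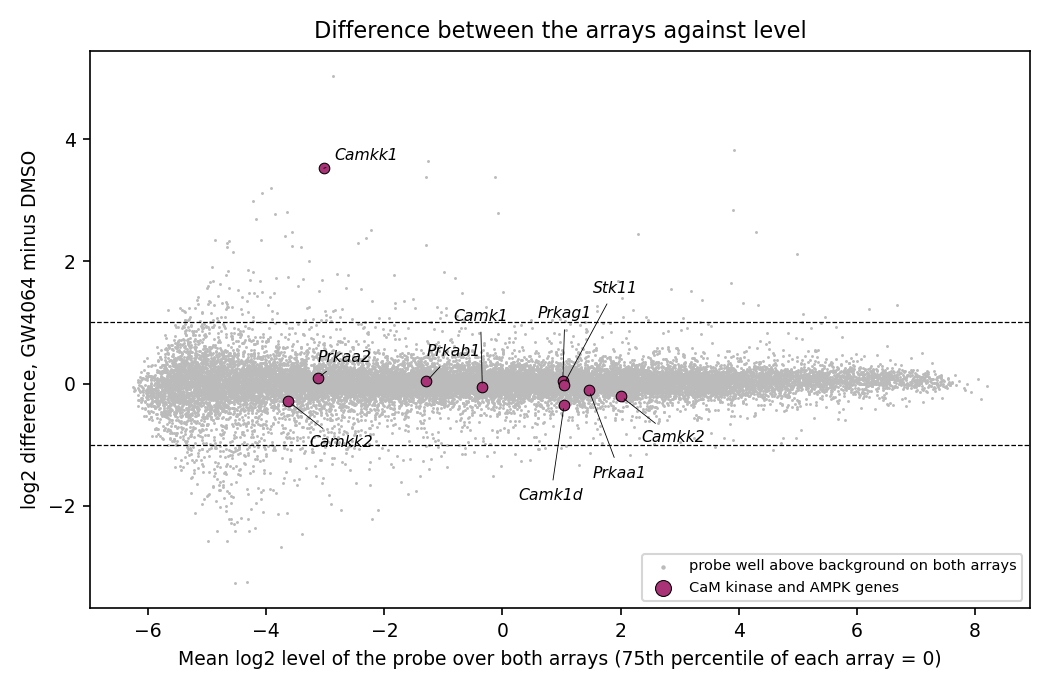
log2 difference (GW4064 minus DMSO) against the mean log2 level of the probe, where 0 is the 75th percentile of each array. Grey dots are the 21707 probes measured on both arrays, purple dots the probes of the CaM kinase and AMPK genes among them, and dashed lines mark 2-fold. Camkk1 lies apart at 3.52, and the other probes shown lie between -0.34 and 0.088 within the band of grey dots.

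The genes beside the CaM kinase kinase genes on the chromosome did not share the rise of Camkk1. In the order of genes in the RefSeq annotation of GRCm38.p6, P2rx1 lies directly before Camkk1, and P2rx7 and P2rx4 directly before Camkk2. These encode ATP-gated channels that let calcium into the cell. P2rx1 had signals of 90.6 and 86.7 with DMSO and GW4064, a log2 difference of -0.13. P2rx4 had 60358 and 57865, a difference of -0.13, and the 3 probes for P2rx7 had between 0.051 and 0.21. On the far side of Camkk1, the 3 probes for Ncbp3 had 0.027, 0.15 and 0.46, and Atp2a3, a calcium pump of the endoplasmic reticulum and the gene before P2rx1, had 0.26. With the spike-in RNA each of these values is 0.19 lower. These neighbours were chosen after the values had been seen.

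The genes around these kinases were taken from 6 lists with 91 genes in all, of which 81 were measured. Of these, 36 were higher and 45 lower, 3 were 2-fold or more higher and 1 was 2-fold or more lower, beside 2.04% and 2.71% of all genes. Their median log2 difference was -0.032, against 0.0068 over all genes. Centring on the spike-in RNA lowers every log2 difference by 0.19, which turns the small positive values among those that follow negative.

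In the list of the other AMPK subunits and the partners of LKB1, 6 of 7 genes were measured, 2 higher and 4 lower, none 2-fold, with a median of -0.062. Strada, a pseudokinase that activates LKB1, had 0.066, and Cab39, the scaffold MO25 alpha of the same complex, had -0.032. The AMPK-related kinases that LKB1 also activates had 9 of 12 genes measured, 2 higher and 7 lower, none 2-fold, with a median of -0.051. Sik3 had 0.016 and Snrk -0.14.

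In the list of other CaM kinases, calmodulin, CaM kinase inhibitors and phosphatases, 13 of 16 genes were measured, 10 higher and 3 lower, none 2-fold, with a median of 0.044. Calm2, a calmodulin gene, had -0.030. The CREB, class IIa HDAC and MEF2 factors downstream of CaM kinases were all measured (13 genes), 4 higher and 9 lower, none 2-fold, with a median of -0.072. Hdac5, a corepressor that CaM kinases drive out of the nucleus, had signals of 12842 and 10321 and a difference of -0.38, and the coactivator Crebbp had -0.24.

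Among 19 of 20 genes for substrates of AMPK that were measured, 9 were higher and 10 lower, with a median of -0.039. Of the 19, 1 was 2-fold or more higher, beside 2.04% of all genes. That gene was Mlxipl, for the glucose-responsive factor ChREBP, with signals of 32.8 and 82.1. Its log2 difference of 1.26 fell to 0.28 after normexp. Txnip had -0.11 and the mitochondrial fission factor Mff 0.097. Tbc1d1, a regulator of glucose transporter traffic named here after its values were seen, had probes with 1.08, from signals of 6880 and 15218, and 0.52, both in clustered areas, and a mean of 0.80.

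Of 23 genes for calcium entry, release and calcineurin signaling, 21 were measured, 9 higher and 12 lower, with a median of -0.024. Of the 21, 2 were 2-fold or more higher and 1 was 2-fold or more lower, beside 4.75% of all genes in either direction. Ryr1, a ryanodine receptor, had signals of 366 with DMSO and 908 with GW4064, a log2 difference of 1.25 that stayed between 1.01 and 1.25 over the settings. Ryr2 was not well above background with DMSO (11.1) and had 39.3 with GW4064. It was at least 2.39-fold higher in the main setting, a log2 difference of 1.26. After normexp this log2 difference was 0.35, below the 2-fold threshold. Itpr1, an inositol trisphosphate receptor, had 2095 with DMSO and 986 with GW4064, a difference of -1.15 that stayed between -1.34 and -1.05. The other receptors of that family did not share this value, with -0.068 for Itpr2 and 0.30 for Itpr3, whose probe was printed 10 times. Each of the probes for Ryr1, Ryr2 and Itpr1 was printed once, outside clustered areas. Ppp3ca, the calcineurin catalytic subunit, had -0.10 and the calcium channel Orai3 -0.13.

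**Figure D5:**
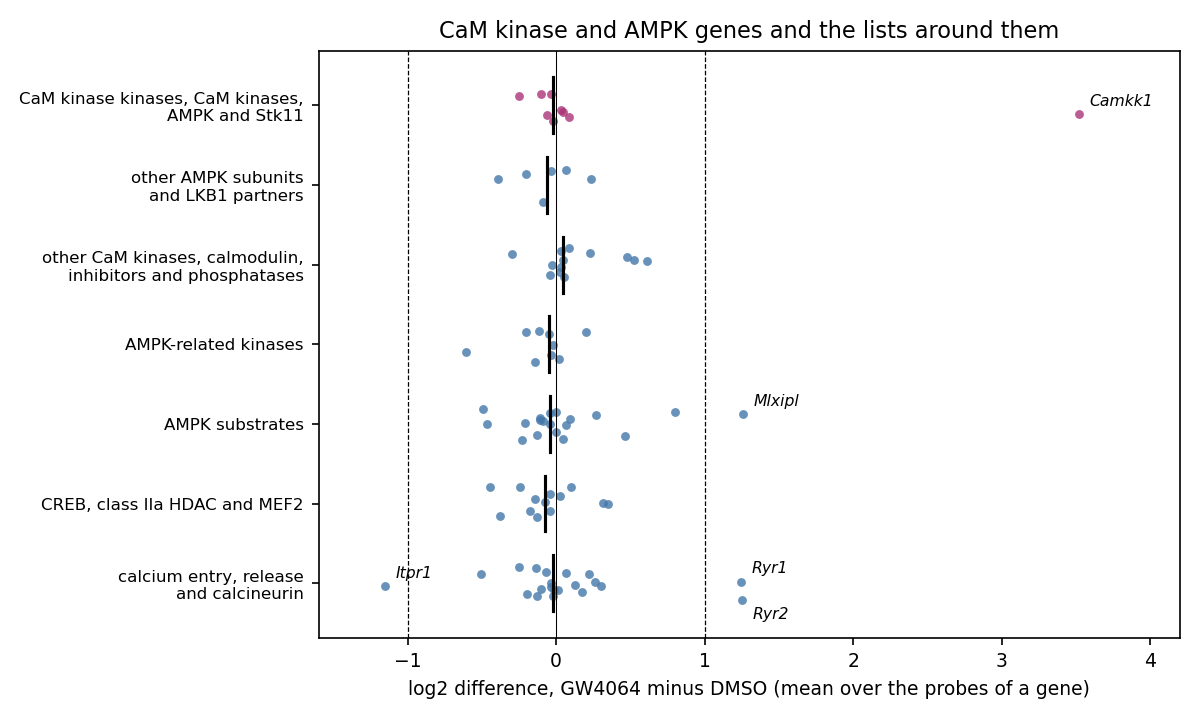
log2 difference (GW4064 minus DMSO) of each gene measured, as the mean over its probes, in the 9 CaM kinase and AMPK genes (purple) and the 6 lists around them (blue). Black bars are medians, dashed lines mark 2-fold, and genes beyond 2-fold are named. Camkk1 at 3.52, Mlxipl, Ryr1, Ryr2 and Itpr1 lie outside the dashed lines, and the medians lie between -0.072 and 0.044.

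The cultures carried the markers of macrophages. All 10 macrophage markers with a probe were measured on both arrays, with differences from -0.42 to 0.19, a median of 0.057 and a summed signal of 359037 with DMSO and 344722 with GW4064. The 9 IL-4 markers had a median of 0.84, 7 higher and 2 lower, with Arg1 highest at 3.82. The 2 lower were Mrc1 at -0.34 and Il4ra at -0.15, and Chil3, the brightest, had 0.066. Of markers of other cell types, 8 of 9 measured stromal markers were lower, with a median of -0.72 and a summed signal of 37505 with DMSO and 21322 with GW4064, and 8 of 9 neutrophil and progenitor markers were lower, with a median of -0.74 and sums of 14018 and 9097. T cell markers had sums of 2986 and 3031 and a median of 0.0080 over 5 genes. B cell markers had sums of 318 and 244 and a median of -0.81 over 2 genes. Dendritic cell markers had 235832 and 209987 with a median of -0.0021 over 6, and neural markers 8056 and 7274 with a median of -0.10 over 5. These medians hide larger values. In the dendritic list 1 marker was 2-fold or more higher, beside 2.04% of all genes. In the B cell and neural lists 1 marker each was 2-fold or more lower, beside 2.71% of all genes. Pax5, Xcr1, Cd209a, Gfap, Rbfox3 and Lum were not well above background on either array. The part of other cells in the differences above was not tested, and fewer cells of a type cannot be told apart from less RNA per cell in such bulk samples.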

How the data were processed

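For both arrays the authors deposited spot intensity values written by Agilent Feature Extraction (10.7.1.1, per the submitters' processing notes), background-subtracted and evened out within the array but not scaled between arrays. They also deposited a log2 table. The difference between its columns equalled that computed here for 38801 probes printed once, apart from a constant of 0.0022. Its columns have medians of 0.035 and -0.051, and the baseline it is centred on stays unknown.

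From the intensities, log2 signal minus the 75th percentile over non-control spots was computed. Spots marked uneven or as outliers among copies were left out on the array that marked them, no spot was saturated, and spots of a probe were averaged. A probe counted as well above background when most of its spots were, which held for 22518 probes with DMSO and 22936 with GW4064. Where this held on 1 array alone, the other array took its own value or, if that was dimmer, the lowest signal well above background, so that "at least" marks a bound. A gene is the mean over its measured probes. RefSeq names of GRCm38.p6 matched 26581 probes. The array design is annotated on another build, so no coordinates are given, and probe sequences were not used here.

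The genes and lists were chosen with earlier results of these data known. All 10 genes are named, and from each list those beyond 2-fold and the 2 brightest, except for results that are not reported here. The arrays shared 1 slide and 1 scan, so neither could be tested as a batch. The steps were run on simulated data for this comparison, where 200 of 200 probes changed 4-fold were recovered and 0 others called among 22527. The simulated GW4064 array was the DMSO array with noise added and the same quality marks. Changes were planted only in probes brighter than that of Camkk1 with DMSO. This run checks the arithmetic of the steps alone. It cannot gauge error for dim probes, for bounds or for clustered areas, since it held none of these differences. Alternatives to background, scaling, filters, marked spots, clustered areas and probe choice were computed. Normexp was run in limma 3.58.1 under R 4.3.3, all else in Python 3.11.15 with pandas 2.3.3 and numpy 2.4.6, and loess with statsmodels 0.14.6. Plots were drawn in matplotlib 3.10.9.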

Additional observations from a re-analysis of the deposited data

How the results depend on the processing

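No paired analysis was possible because DMSO and GW4064 have 1 array each, and for the same reason no array could be left out. Of 12 other settings and 2 more chosen after seeing the data (the median over copies, and the signal before the evening out of trends), normexp with an offset of 50 moved Camkk1 most. It gave 2.37 in place of 3.52 for Camkk1, and 2 in place of 4 of the 81 list genes beyond 2-fold. Over all 13532 genes, 72 were higher and 64 lower by 2-fold with normexp, against 276 and 367 in the main setting. A threshold of 1.5-fold gave 7 of the 81, beside 9.95% of all genes. Centring on the spike-in RNA moved the median of the 9 genes from -0.018 to -0.21. Without the clustered areas Stk11 and Prkaa1 had no spot left, and Camk1 had -0.14 in place of -0.062. Camkk1, Camkk2, Camk1, Camk1d, Stk11 and Prkaa1 kept their sign in each setting that gave a value. The signs of Prkaa2 and Prkag1 turned in 1 setting and that of Prkab1 in 3. For Prkaa2 and Prkag1 that setting was the centring on the spike-in RNA, which lowers every difference by 0.19 and also turned Prkab1. Prkab1 turned as well with normexp and before the evening out of trends, and the reason for this was not tested. Signals near 15.7 and 15.1, the lowest well above background, limit Camk4 and the dim probe for Camk1d.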
